A study of Drosophila melanogaster with 7 samples.

Results

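The Z4 list comprised 7491 called regions out of 29798 in the 5 lists of the study, and all 7491 were taken as members. They came from chromatin immunoprecipitation and sequencing (ChIP-Seq) with a polyclonal guinea pig antibody against Z4 in S2 cells, a line derived from Drosophila melanogaster embryos and kept in culture. The labels give no treatment or genetic change for these cells. The list was called against an input, chromatin without immunoprecipitation, that also served WOC and ROW. The lists of Dsk2 and HP1c, from the same cells, were called against a second input, and the antibodies against WOC, ROW, Dsk2 and HP1c were raised in rabbit. Each protein had 1 library, so there is no replicate error. Every interval below is a 95% interval that covers the counting of regions only. The intervals are exact, except that those of differences of shares are approximate. Regions that lie close together are not independent of each other. The files hold positions alone, with no height, p-value or read number, and the depth of the libraries is unknown.

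Z4, also named putzig, is a zinc-finger protein that marks the interbands of polytene chromosomes, the decondensed stretches between the compact bands. Interbands are known for holding the promoters of broadly active genes, and Z4 is found there with the chromodomain protein Chromator. ROW and WOC are zinc-finger proteins known as partners of HP1c, which belongs to the heterochromatin protein 1 family but lies in euchromatin. Dsk2, a ubiquilin, binds ubiquitin.

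The Z4 regions had a median width of 352 bp, and the 25th and 75th percentiles were 151 and 585 bp. This median was the highest of the 5 lists. By class, 1172 regions (15.6%) were under 50 bp, 1050 (14.0%) were 50 to below 200 bp, 2829 (37.8%) were 200 to below 500 bp and 1914 (25.6%) were 500 to below 1000 bp. Another 447 (5.97%) were 1000 to below 2000 bp and 79 (1.05%) were 2000 bp or wider. The classes contributed unequally to the 3.24 Mb that the list covered. Regions of 500 to below 1000 bp held 40.4% of these bases, and regions under 50 bp held 0.660%. The widest 749 regions (10.0% of the list) held 31.3%. ROW, called against the same input, was spread more widely at both ends, with 21.9% of its regions under 50 bp and 4.09% at 2000 bp or more. WOC, the other list of that input, had 0.0171% at 2000 bp or more.

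The narrow end of the Z4 list had a step. The list held 463 regions of 1 to 10 bp, 223 of 11 to 20 bp and 206 of 31 to 40 bp, but 86 of 41 to 50 bp and 86 of 51 to 60 bp. Single-base regions were the most frequent width of all, with 120 regions, against 61 of 2 bp and 50 of 3 bp. The other lists of the same input stepped at the same width, ROW from 65 regions of 40 bp to 18 of 41 bp and WOC from 49 to 15. The lists of the other input stepped later, Dsk2 from 37 regions of 49 bp to 9 of 50 bp and HP1c from 27 to 9. The step thus moved with the input, and what sets it was not tested.

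**Figure D1:**
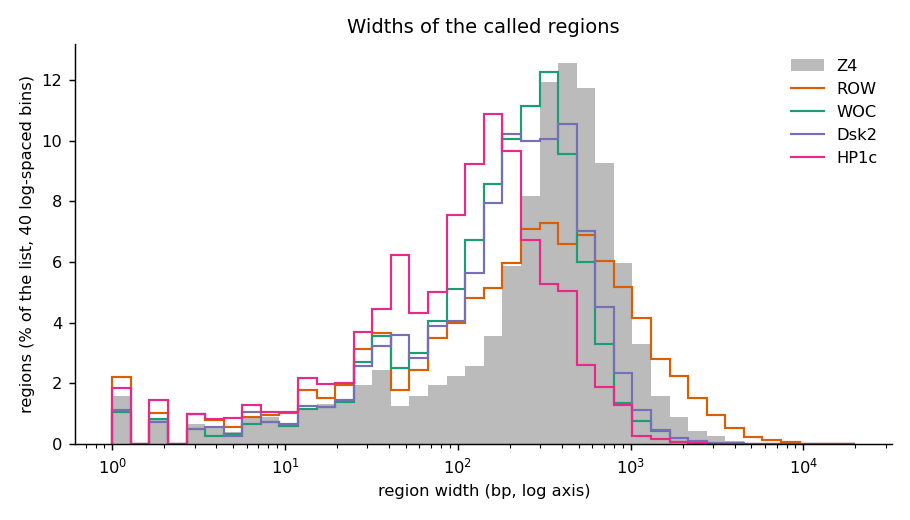
Width of the called regions (bp, log axis) against the percentage of each list in 40 log-spaced bins, with Z4 filled and the other 4 lists as lines. The Z4 regions peak around their median of 352 bp and show a second, lower group of narrow regions that ends near 40 bp.

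Distances between neighbouring Z4 regions ran from under 1 kb to over 100 kb. The distance between neighbouring midpoints had a median of 4083 bp with 25th and 75th percentiles of 1514 and 12556 bp. Of the 7477 distances, 1148 (15.4%, 14.5 to 16.2%) were under 1 kb, 1190 (15.9%) were 1 to 2 kb and 1803 (24.1%) were 2 to 5 kb. At the other end 319 (4.27%, 3.82 to 4.75%) were 100 kb or more. On the 5 large arms the mean was 16244 bp, far above the median of 4014.5 bp, and the standard deviation was 2.31 times the mean. In each of the 5 lists, no 2 neighbours were separated by fewer than 300 bp of uncalled sequence, which sets a floor under these distances. Leaving out narrow regions made close neighbours rarer. With regions of at least 50 bp 8.66% of the distances were under 1 kb, and with the 3746 widest 1.55%, with a median of 9236 bp. Removing regions lengthens the distances in any list, and wide regions cannot have midpoints as close as narrow ones. How much of the fall comes from either was not tested.

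Close pairs of Z4 regions were in excess, and the excess declined with distance. Pairs of Z4 midpoints on the 5 large arms were counted by distance in 1 kb bins and compared with the mean of 467.6 pairs per bin between 100 and 200 kb. Pairs 1 to 2 kb apart were 3.53 times as frequent, pairs 4 to 5 kb apart 2.54 times, pairs 10 to 11 kb apart 1.90 times and pairs 40 to 41 kb apart 1.36 times. Past 3 kb, the bin standing highest above its neighbours was that of 29 to 30 kb, with 690 pairs against a mean of 631 in the 4 adjacent bins, for a counting error of 25.1 pairs. In 100 bp bins past 1 kb it was that of 4800 to 4900 bp, with 144 pairs against 111 and a counting error of 10.55. Each was picked as the highest of all bins. At multiples of the first, the bins of 58 to 59 and 59 to 60 kb held 539 and 508 pairs, beside 560 at 57 to 58 kb and 570 at 60 to 61 kb, and that of 87 to 88 kb held 517 against a mean of 484 in its adjacent bins, for a counting error of 22. The 100 bp bins given here end at 10 kb and take in only the first multiple of 4800 to 4900 bp. There the bins of 9600 to 9700 and 9700 to 9800 bp held 78 and 82 pairs. Beside them were 105 at 9500 to 9600 bp and 93 at 9800 to 9900 bp. Whether the spacing repeats was not tested. Pairs 4 to 5 kb apart were 2.41 times as frequent for ROW, 2.54 times for WOC, 2.44 times for Dsk2 and 2.60 times for HP1c.

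**Figure D2:**
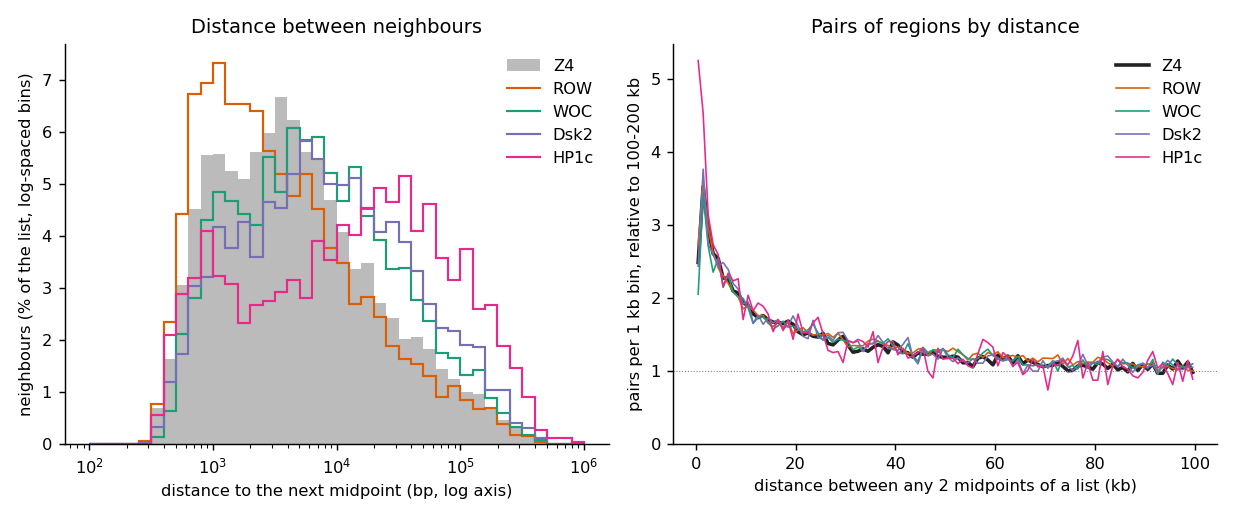
Left, distance to the next midpoint on the 5 large arms (bp, log axis) against the percentage of neighbours in log-spaced bins, with Z4 filled. Right, pairs of midpoints per 1 kb bin relative to 100 to 200 kb against their distance (kb), 1 line per list. The Z4 curve falls from 3.53 at 1 to 2 kb towards 1.

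Clustering reached beyond neighbouring regions. The numbers of Z4 midpoints in 10 kb windows that adjoin each other had a Pearson r of 0.33 across 11893 pairs of windows of this single library. It was 0.19 for windows 20 kb apart, 0.073 at 50 kb and 0.015 at 100 kb. In 100 kb windows the mean was 6.14 regions, with a variance 5.05 times the mean. Of these 1192 windows, 197 (16.5%) held no Z4 region, and 113 (9.48%) held 15 or more and together 28.2% of the regions. Neighbours were weakly alike in width (Spearman rho 0.12 across 7308 neighbours), and a short distance tended weakly to be followed by another short one (rho 0.11 across 7303). These 2 values are given as a description, and all points share 1 library.

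Joining Z4 regions with gaps under 1 kb gave 5625 groups. Single regions made up 4426 of them, 811 were pairs and 388 held 3 or more regions. In all, 40.9% of the Z4 regions lay in a group of 2 or more, compared with 60.5% for ROW, 26.2% for WOC, 25.6% for Dsk2 and 28.5% for HP1c. With gaps under 5 kb 80.0% of Z4 regions were grouped. A longer list has closer neighbours, and the lists held 8999 ROW, 7491 Z4, 5849 WOC, 4748 Dsk2 and 2711 HP1c regions. HP1c, the shortest list, was nevertheless grouped more often than WOC and Dsk2. The part of list length in these shares was not tested.

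The longest chain lay on 3R from 19145883 to 19174285. It held 18 Z4 regions of 3 to 5082 bp that covered 20.8 of its 28.4 kb, and all 18 overlapped ROW, while 6 overlapped WOC, 6 Dsk2 and 5 HP1c. Chains of 9 regions lay on 2R from 7073054 to 7085156 and on 3R from 27429094 to 27436983. Of the 9 on 2R, 8 overlapped ROW, 5 WOC, 4 Dsk2 and 3 HP1c. The second 3R chain carried ROW with little else, as 8 of its 9 regions overlapped ROW, 1 WOC, and 0 Dsk2 or HP1c.

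The densest 100 kb was on 2L from 470787 to 570786, with 34 Z4 regions that covered 18.9 kb. The same window held 25 ROW, 30 WOC, 20 Dsk2 and 11 HP1c regions. It was followed by windows on 2L from 10247036 (30 Z4 regions), 2L from 8364623 (29), X from 3246240 (29) and 3R from 16884691 (27). They differed in the width of their regions. The median was 86 bp in the X window and 481 bp in the 3R window, which therefore covered 6.71 and 19.2 kb. Within 10 kb the most were 12 regions, on 2L from 16525752, with a median width of 89 bp. Windows on X from 2189206 and on 2L from 1628471 held 11 and 10.

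The longest stretches without Z4 differed in what else they held. The longest distance between neighbouring Z4 midpoints was 572 kb on 2R, between 15561457 and 16133013, and held 2 ROW, 7 WOC, 6 Dsk2 and 5 HP1c regions. Distances of 462 and 458 kb followed on 2L, from 17501119 and from 16910410. The first of these held 1 WOC and 1 Dsk2 region and no ROW or HP1c region, and the second held no region of any list. On X, 434 kb from 11923147 held 5 regions of other lists in all (1 ROW, 1 WOC, 2 Dsk2 and 1 HP1c). The 396 kb from 2632861 held 5 ROW, 9 WOC, 7 Dsk2 and 3 HP1c regions. In windows of 1 Mb, the number of Z4 regions ran from 16 (2L, 17 to 18 Mb) to 125 (2R, 5 to 6 Mb), and the median of the arms ran from 58 to 69.

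Z4 was densest on 2R and least dense on X among the large arms. It had 72.2 regions per Mb on 2R (68.6 to 75.9), 63.2 on 3R (60.3 to 66.2), 59.5 on 3L (56.5 to 62.6), 58.6 on 2L (55.5 to 61.8) and 54.7 on X (51.7 to 57.9). The interval of 2R overlapped that of no other large arm, whereas that of X overlapped those of 2L and 3L. Each of the other lists also had its highest value on 2R, with 89.2 regions per Mb for ROW, 51.0 for WOC, 42.0 for Dsk2 and 25.9 for HP1c. Among these, only the ROW interval on 2R (85.2 to 93.3) overlapped that of no other large arm. The 2R intervals of WOC and Dsk2 overlapped those on X, and that of HP1c overlapped that on 3R. ROW was also least dense on X (63.1). Relative to the 4 large autosomal arms together, X had 0.867 times the density of Z4 regions (0.815 to 0.922). For the other lists this ratio was 0.818 for ROW, 0.931 for HP1c, 1.04 for Dsk2 and 1.05 for WOC. The Z4 ratio was lower still among wide regions. With the 3746 widest regions alone it was 0.635 (0.576 to 0.700).

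Z4 regions on X were also narrower. Their median was 275.5 bp, against 346.5 to 389 bp on the other large arms. On X 19.2% of the regions were under 50 bp and 18.7% were 500 to below 1000 bp, whereas on 2L, 2R, 3L and 3R together these shares were 14.9% and 27.2%. Regions of 2000 bp or more numbered 4 on X and 74 on the 4 autosomal arms (0.326% and 1.22%). Regions of ROW, WOC and Dsk2 were narrower on X as well, with medians of 187, 169 and 183 bp against 246 to 281 bp, 198 to 223 bp and 212 to 233 bp on the other large arms. HP1c was not, with 119.5 bp against 116 to 135 bp.

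The other proteins were found at Z4 regions in the order ROW, WOC, Dsk2 and HP1c. ROW shared at least 1 bp with 5573 of the 7491 regions (74.4%, 73.4 to 75.4%), WOC with 3533 (47.2%, 46.0 to 48.3%), Dsk2 with 3042 (40.6%) and HP1c with 1257 (16.8%). A Z4 midpoint lay inside a ROW region in 48.2% of cases, inside a WOC region in 32.8%, a Dsk2 region in 27.9% and an HP1c region in 7.14%. For scale, ROW regions covered 3.66% of the 5 large arms, WOC regions 1.21%, Dsk2 regions 1.09% and HP1c regions 0.391%. The order of the shares was thus also that of the bases covered. Counted from the other lists the order differed, as Z4 was at 57.9% of ROW, 61.5% of WOC, 65.0% of Dsk2 and 48.1% of HP1c regions. By bases, 54.8% of the Z4 length was shared with ROW, 26.6% with WOC, 23.5% with Dsk2 and 5.13% with HP1c. Only ROW and WOC were called against the input of Z4, so the order of those 2 is within an input, and for Dsk2 and HP1c the protein and the input cannot be told apart. The order of ROW and WOC was lost under 2 alternatives, each with overlapping intervals. When all regions were resized to 200 bp on their midpoints, they stood at 39.0% and 39.4%. With the 2711 widest regions of each list, Z4 included, they stood at 52.9% (51.0 to 54.8%) and 51.6% (49.7 to 53.5%).

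The share with WOC and Dsk2 rose with the width of the Z4 region. WOC was at 21.8% of Z4 regions under 50 bp (19.4 to 24.2%), 26.8% at 50 to below 200 bp, 42.2% at 200 to below 500 bp, 72.2% at 500 to below 1000 bp and 80.4% at 1000 bp or more (76.8 to 83.7%). Dsk2 followed the same order at a lower level, from 19.8% to 77.2%. HP1c was at 9.64% of the regions under 50 bp, 15.1% at 50 to below 200 bp, 10.96% at 200 to below 500 bp, 22.5% at 500 to below 1000 bp and 46.4% at 1000 bp or more. A wide region meets another region more easily, and 2 other counts were therefore made. By Z4 midpoints inside a region, WOC rose from 21.2% under 50 bp to 51.7% at 500 to below 1000 bp and was lower again at 1000 bp or more (35.9%). With all regions at 200 bp it took the same course, from 22.7% to 60.3% and 35.9%. Dsk2 peaked in the same class by both counts, at 42.1% and 52.7%. For HP1c the counts differed in direction. By midpoints it was at 8.62% under 50 bp and 6.46% at 1000 bp or more, a difference of -2.15 points with an interval that includes 0 (-4.66 to 0.691). With 200 bp regions it was at 12.4% and 16.5%, a difference of 4.17 points (0.615 to 8.01).

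ROW did not follow this order. By shared bases it was at 70.6% of Z4 regions under 50 bp (67.9 to 73.2%), 58.5% at 50 to below 200 bp (55.4 to 61.5%), 66.2% at 200 to below 500 bp, 90.6% at 500 to below 1000 bp and 99.6% at 1000 bp or more, where 524 of 526 regions carried it. All 79 regions of 2000 bp or more overlapped ROW, which with 79 regions allows a share as low as 95.4%. In finer steps the lowest share was 46.5%, at 200 to below 250 bp (41.9 to 51.2%), and it rose from there to 94.5% at 700 to below 1000 bp. By midpoints the dip was deeper. The midpoint lay inside a ROW region for 69.3% of Z4 regions under 50 bp, 31.2% of those of 200 to below 500 bp, 72.4% of those of 1000 bp or more and 94.9% of the 79 of 2000 bp or more. The difference between 1000 bp or more and under 50 bp was thus 3.15 points by midpoints, with an interval that includes 0 (-1.58 to 7.69), against 29.1 points by shared bases. With 200 bp regions its direction turned, to -6.86 points (-11.6 to -1.94). The dip at 200 to below 500 bp was absent by that count, where this class had the highest share, 43.5% (41.7 to 45.4%). ROW was then at 38.2% under 50 bp, 35.4% at 50 to below 200 bp, 36.7% at 500 to below 1000 bp and 31.4% at 1000 bp or more.

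**Figure D3:**
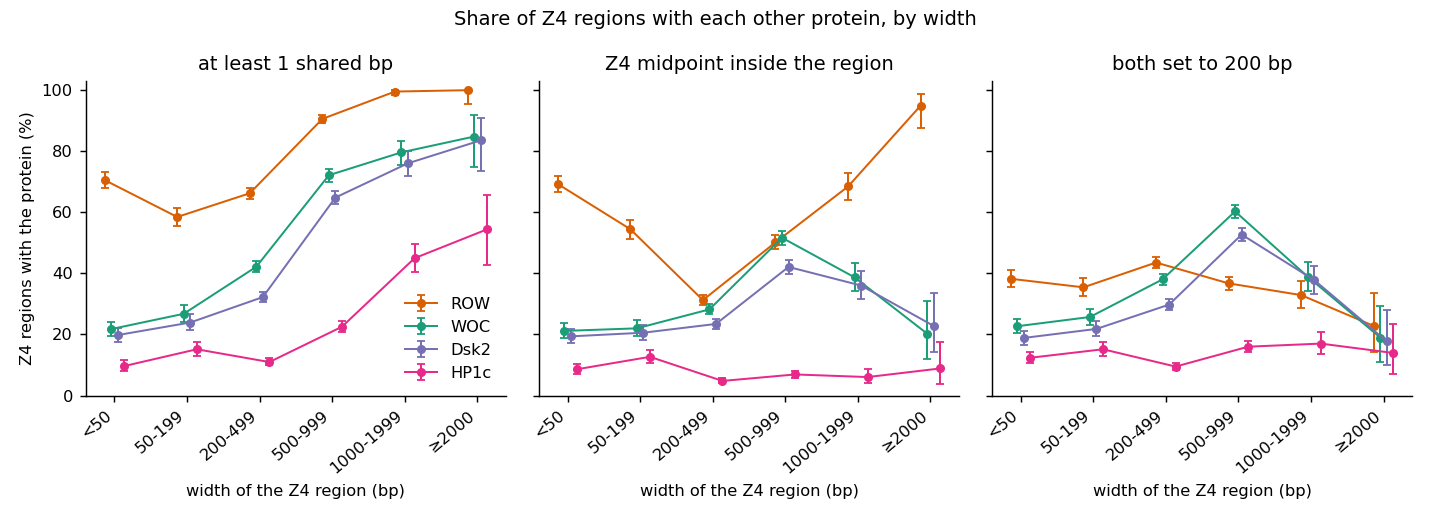
Percentage of Z4 regions with each other protein (1 line each) against the width class of the Z4 region (bp), with exact 95% intervals, under 3 ways of counting a region as shared. WOC and Dsk2 rise up to 500 to below 1000 bp in all 3 panels. Where shared bases are counted, ROW starts high at 70.6% under 50 bp, dips and reaches 100%. With 200 bp regions ROW starts at 38.2% and is highest at 200 to below 500 bp (43.5%).

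In Z4 regions of 200 to below 1000 bp, ROW lay more often at the ends than at the midpoint. WOC and Dsk2 lay more often at the midpoint than at the ends in regions of 200 bp or more. In Z4 regions of 200 to below 500 bp, ROW covered 39.7% of left ends, 38.7% of right ends and 31.2% of midpoints (29.5 to 33.0%). WOC covered 28.2% of midpoints and 9.86% of either end, and Dsk2 23.4% of midpoints against 6.50 and 7.60% of the ends. At 500 to below 1000 bp the contrast was the same in kind, with ROW at 55.9 and 57.8% of ends and 50.2% of midpoints, and WOC at 7.16 and 7.73% of ends and 51.7% of midpoints. At 1000 bp or more ROW covered 76.6 and 74.7% of ends and 72.4% of midpoints, with overlapping intervals. Around midpoints on the 5 large arms, ROW coverage of the 200 to below 500 bp class was 41.2% at 150 bp to the left, 31.8% at the midpoint and 40.2% at 150 bp to the right. It was 10.2% at 3000 bp to the left. In the 500 to below 1000 bp class the 2 maxima stood at 250 bp on each side (55.7 and 55.8%), with 50.2% at the midpoint. In regions of 1000 bp or more they stood near 500 bp (79.3 and 78.7%), with 72.1% at the midpoint. The distance between the ROW maxima thus grew with the Z4 region.

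Of the 1874 Z4 regions of 200 to below 500 bp with ROW, 648 (34.6%) lay wholly inside ROW, 707 (37.7%) had ROW at 1 end without reaching the midpoint, and 12 (0.640%) had ROW at both ends but not at the midpoint. Of the 1734 regions of 500 to below 1000 bp with ROW, 465 (26.8%) had it at 1 end alone and 163 (9.40%, 8.07 to 10.9%) at both ends but not at the midpoint. WOC was different in the latter class. Of 1381 regions with WOC, 851 (61.6%) had it at the midpoint and at neither end, and 5 at both ends alone.

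**Figure D4:**
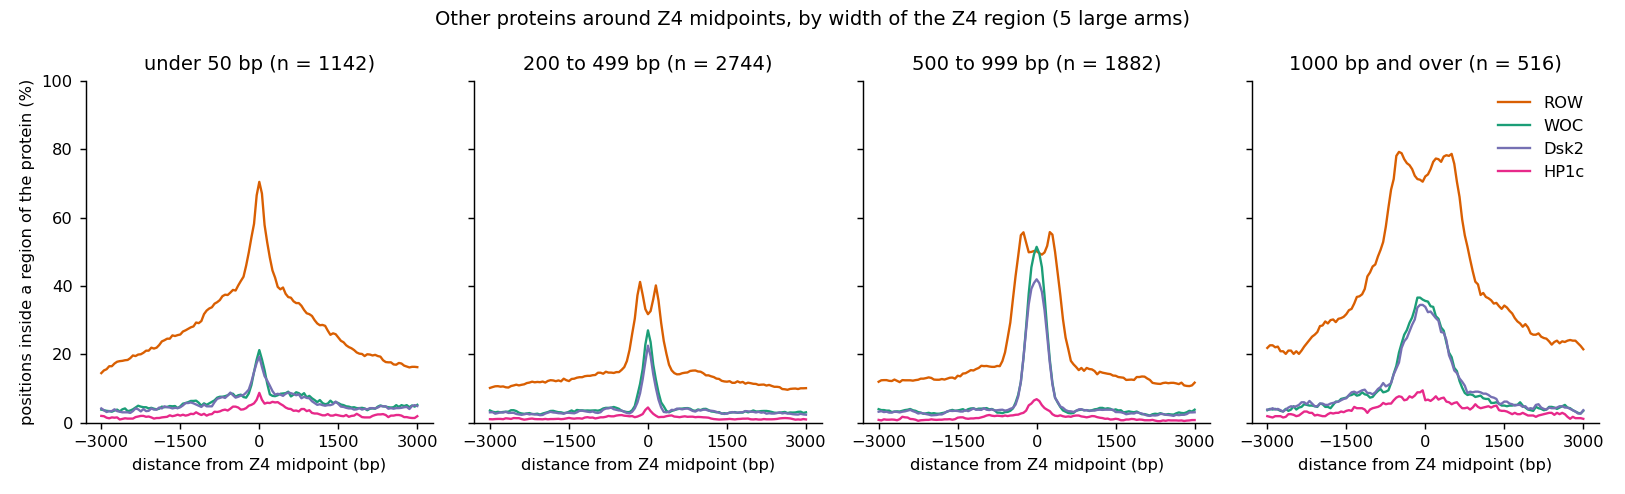
Percentage of positions inside a region of each other protein against the distance from the Z4 midpoint (bp), for 4 width classes of Z4 regions on the 5 large arms. ROW has 2 maxima beside the midpoint from 200 bp upward, at 41.2 and 40.2% in the 200 to below 500 bp class, whereas WOC and Dsk2 are highest within 150 bp of the midpoint in every class, and under 50 bp ROW has a single peak.

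Narrow Z4 regions had a close Z4 neighbour more often than wider ones. Of the 1172 regions under 50 bp, 801 lay wholly inside a ROW region and 345 had no ROW. A narrow region that meets a wider one was mostly contained in it, as for 801 of the 827 with ROW (96.9%), 231 of the 255 with WOC (90.6%) and 212 of the 232 with Dsk2 (91.4%). The median width of the ROW region was 957 bp at Z4 regions under 50 bp and 303 bp at those of 200 to below 500 bp. ROW regions of 2000 bp or more took in 160 of the 827 (19.3%). Another Z4 midpoint was within 1 kb for 52.6% of the regions under 50 bp (49.7 to 55.5%), 44.9% of those of 50 to below 200 bp, 21.8% of those of 200 to below 500 bp and 13.5% of those of 500 to below 1000 bp. Wide regions cannot have midpoints as close as narrow ones, which adds to this order. A Z4 region of 500 bp or more lay within 1 kb of 18.7% of the regions under 50 bp, 17.4% of those of 50 to below 200 bp, 9.69% of those of 200 to below 500 bp and 11.8% of those of 500 to below 1000 bp. It was more frequent beside wide regions, at 24.4% for 1000 to below 2000 bp and 39.2% for 2000 bp or more. This second count was not between midpoints. Another Z4 midpoint was within 1 kb for 4.03% of the regions of 1000 to below 2000 bp and 0% of those of 2000 bp or more.

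Sharing also changed with the distance to the nearest Z4 region. The share with ROW fell from class to class, while that with WOC was lower within 1 kb and 50.8 to 53.9% beyond. Of the 1982 Z4 regions with another Z4 midpoint within 1 kb, 84.0% had ROW (82.3 to 85.6%) and 34.5% had WOC (32.4 to 36.7%). Of the 341 regions 20 kb or more from any other, 49.3% had ROW (43.8 to 54.7%) and 53.4% had WOC (47.9 to 58.8%). The share with none of the 4 proteins was 6.56% in the first set and 24.0% in the second. Median widths were 160.0 bp in the first set and 322 bp in the second, but 418 and 417 bp in the classes between them. Width was thus lowest within 1 kb and did not rise steadily with isolation. The part of width in this result was not tested.

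Z4 regions most often carried ROW alone, but among the widest all 4 proteins were the most frequent combination. ROW alone was found at 2726 regions (36.4%, median width 263.5 bp), ROW with WOC and Dsk2 at 1323 (17.7%, 598 bp) and all 4 proteins at 854 (11.4%, 686.5 bp). None of the 4 was found at 942 (12.6%, 205 bp), and WOC with Dsk2 but without ROW at 451 (6.02%, 319 bp). Another 224 had WOC, Dsk2 and HP1c without ROW, with a median of 98.5 bp, and 78 of these were under 50 bp. All 4 proteins were at 2.13% of the Z4 regions under 50 bp, 5.20% at 200 to below 500 bp, 19.2% at 500 to below 1000 bp, 42.1% at 1000 to below 2000 bp and 53.2% at 2000 bp or more. Regions with none were most frequent at 50 to below 200 bp (26.9%, 24.2 to 29.6%). At 1000 to below 2000 bp there were 0 of 447, which allows a share of up to 0.822%, and at 2000 bp or more 0 of 79, which allows up to 4.56%. These counts rest on 1 shared bp, which wide regions meet more easily. Over the whole list all 4 proteins were at 2.31% by midpoints and 2.87% with 200 bp regions, and none at 27.8% and 31.6%.

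The 942 regions without any other protein were close to one in many cases. The nearest edge of another list was under 300 bp away for 34.8% of them and under 1 kb for 50.1%, with a median of 987.5 bp. At 143 of them (15.2%) no other region lay within 5 kb. Of these 942, 25.1% were on X, which held 16.4% of all Z4 regions. The widest were 855 bp on 2L (22179000 to 22179854), 789 bp on 2L (13549319 to 13550107) and 775 bp on X (8301232 to 8302006), and the midpoints of other lists nearest to them were 464, 628 and 3005 bp from theirs.

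ROW was found less often at Z4 regions on X. It was at 720 of 1226 Z4 regions there (58.7%, 55.9 to 61.5%) and at 4770 of 6087 on 2L, 2R, 3L and 3R (78.4%, 77.3 to 79.4%), a difference of -19.6 points (interval -22.6 to -16.7). This comparison was chosen after seeing the data. The difference was smaller by midpoints (-11.1), with 200 bp regions (-7.72) and with equal-length lists (-12.1). Single autosomal arms ran from 74.6% on 2L to 81.6% on 2R. The other proteins showed smaller differences at most, as WOC was at 46.6% of Z4 regions on X and 46.6% on the autosomal arms, Dsk2 at 37.4 and 40.6%, and HP1c at 15.3 and 17.1%. Within the 50 to below 200 bp class WOC was 9.55 points higher on X (33.8 and 24.2%). The ROW difference was seen within each width class below 1000 bp. It was -9.50 points under 50 bp (64.3 and 73.8%), -22.8 at 50 to below 200 bp (41.7 and 64.4%), -20.8 at 200 to below 500 bp (49.9 and 70.7%) and -13.6 at 500 to below 1000 bp (78.6 and 92.2%). All 55 Z4 regions of 1000 bp or more on X had ROW.

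The other lists also shared less with ROW on X. ROW was at 29.5% of WOC regions on X and 40.5% on the 4 autosomal arms, at 30.1 and 42.5% of Dsk2 regions and at 19.8 and 30.1% of HP1c regions. ROW regions covered 2.54% of X and 3.46 to 4.75% of the other large arms, and the part of this in the Z4 result was not tested. From the other side, Z4 was at 45.1% of ROW regions on X and 60.2% on the autosomal arms, and at 51.4 and 63.2% of WOC regions.

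**Figure D5:**
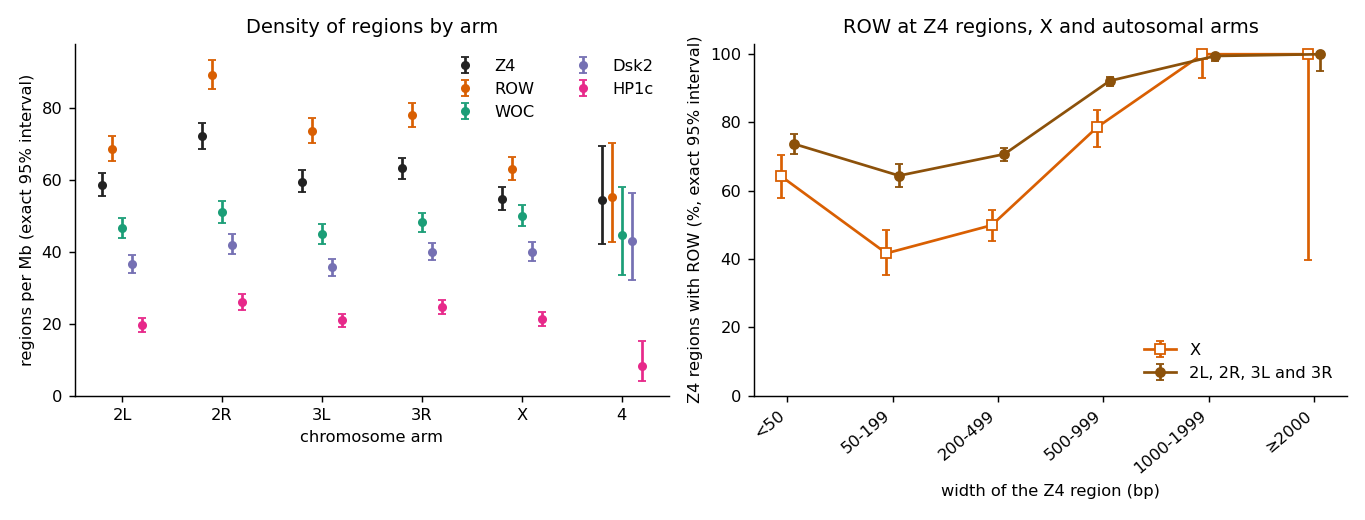
Left, regions per Mb on each arm for the 5 lists. Right, percentage of Z4 regions with ROW against the width class of the Z4 region (bp) on X (open squares) and on 2L, 2R, 3L and 3R (filled circles); bars are exact 95% intervals. Z4 is densest on 2R (72.2 per Mb), and ROW is lower on X in each class below 1000 bp.

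Chromosome 4, a small autosome rich in heterochromatin, held 66 Z4 regions, or 54.4 per Mb (42.1 to 69.3). Its density was 0.885 times that of the 5 large arms, with an interval that includes 1 (0.683 to 1.13). The partners differed there from the large arms. WOC was at 50 of the 66 (75.8%, 63.6 to 85.5%), Dsk2 at 47 (71.2%, 58.7 to 81.7%), ROW at 35 (53.0%, 40.3 to 65.4%) and HP1c at 6 (9.09%, 3.41 to 18.7%). WOC and Dsk2 were thus more frequent than on the 4 autosomal arms (46.6 and 40.6%) and ROW less frequent than there (78.4%), by intervals that do not overlap. The sequences assembled as heterochromatin or left unplaced held 108 Z4 regions in all, of which 74 (68.5%) had WOC and 48 (44.4%) ROW. The mitochondrial genome held 4 Z4 regions of 34 to 326 bp. Of these 3 overlapped Dsk2, 2 HP1c and 0 ROW or WOC, and the last 2 lists had no region there.

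The 5 widest Z4 regions each overlapped ROW, WOC and Dsk2. The widest was 7721 bp on 2R (6974462 to 6982182) and overlapped a ROW region of 18231 bp and no HP1c region. The next were 7125 bp on 3R (25602632 to 25609756), 5231 bp on 3R (25082005 to 25087235), 5096 bp on 3R (16882144 to 16887239) and 5082 bp on 3R (19160552 to 19165633), each with HP1c as well. In the last, the overlapping regions were wide for every protein, at 12602 bp for ROW, 1580.0 bp for WOC, 4229 bp for Dsk2 and 2444 bp for HP1c. At 16882144 they were narrow for all but ROW, with 86 bp for WOC, 33 bp for Dsk2 and 196 bp for HP1c beside 5943 bp for ROW. The widest Z4 region with ROW alone was 3906 bp on 3R (8524896 to 8528801) and overlapped a ROW region of 4267 bp. The widest with WOC alone was 913 bp on X (12984295 to 12985207), and its WOC region was 116 bp wide. With Dsk2 alone it was 819 bp on X (16481169 to 16481987), with a Dsk2 region of only 2 bp. With HP1c alone it was 505 bp on 3R (24460678 to 24461182), with an HP1c region of only 14 bp. Of the 526 Z4 regions of 1000 bp or more, 2 lacked ROW, and 1 of these carried WOC and Dsk2 and the other WOC, Dsk2 and HP1c.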

How the data were processed

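Each list was deposited by the authors as chromosome, start and end, and the submitters' processing notes name dm3 as the build. The same notes name Bowtie 0.12.5, FastQC 0.9.3 and CASAVA 1.8. No source used here gives the peak caller, its threshold or how close calls were joined. Calling was against input, per the series' design text.

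Both ends were counted as part of a region, so width is end minus start plus 1. Positions are printed as deposited and could be off by 1 bp. Arms run between the outermost positions of any list. Sharing means at least 1 bp in common. Shares have Clopper-Pearson intervals, densities exact Poisson intervals, density ratios the conditional exact interval, and differences of shares Newcombe intervals. No test was run, since each protein had 1 library. No gene was assigned, because the gene table used here is of a later build. Named regions were taken by rank of width, density, chain length or distance. Members, classes and comparisons were chosen with earlier results of these data known. The interval functions were tested on simulated data. Python 3.11.15, NumPy 2.4.6, SciPy 1.17.1 and matplotlib 3.10.9 were used.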

Additional observations from a re-analysis of the deposited data

How the results depend on the processing

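The number of regions stayed within 1.5 times under both alternatives. With regions of at least 50 bp the median width was 412 bp, the median distance 5223 bp, the share of neighbours under 1 kb 8.66% and the variance to mean ratio 4.29. Merging regions under 500 bp apart gave a median width of 413 bp. Edge to edge, the median distance was 3627 bp and 24.96% were under 1 kb. In the 3746 widest regions the distance was 9236 bp, 1.55% were under 1 kb, the variance to mean ratio was 3.35 and the density ratio of X was 0.635. The variance to mean ratio was 3.91 in 50 kb and 5.88 in 200 kb windows.

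By midpoints inside the other region, the share of Z4 regions was 48.2% with ROW, 32.8% with WOC, 27.9% with Dsk2, 7.14% with HP1c, 27.8% with none and 2.31% with all 4. With regions set to 200 bp these were 39.0, 39.4, 33.2, 12.9, 31.6 and 2.87%. With regions of at least 50 bp ROW was at 70.2%, Dsk2 at 39.4%, HP1c at 12.7%, none at 16.4% and all 4 at 8.64%. With equal-length lists, which keep the widest 2711 regions of each including Z4, ROW was at 52.9%, WOC at 51.6%, Dsk2 at 48.9%, HP1c at 26.6%, none at 17.0% and all 4 at 12.7%.

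The difference in share between Z4 regions of at least 1000 bp and those under 50 bp was smaller under the midpoint and 200 bp rules. From 29.1 points for ROW it went to 3.15 by midpoints and to -6.86 with 200 bp regions. For WOC it went from 58.7 to 14.8 and 13.2, for Dsk2 from 57.4 to 14.7 and 15.9, and for HP1c from 36.7 to -2.15 and 4.17. The cause of these shifts was not tested. The interval of the reversed ROW difference excludes 0 (-11.6 to -1.94) and that of the reversed HP1c difference includes it (-4.66 to 0.691). The ROW difference between X and the autosomal arms, an alternative set chosen after seeing the data, kept its sign: -11.1 points by midpoints, -7.72 with 200 bp regions, -24.3 with regions of at least 50 bp and -12.1 with equal-length lists.

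Not knowing depth or peak height limits every value here, since a deeper library or a looser threshold would change number and width alike. No paired analysis was possible because each protein had 1 library.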
